A study of Caenorhabditis elegans with 15 samples.

Results

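The cdr genes and the metallothionein genes of Caenorhabditis elegans were taken by name from a list of 8 genes, cdr-1 to cdr-6, mtl-1 and mtl-2. A total of 7 of the 8 names, 5 cdr genes and 2 metallothionein genes, are among the 20541 genes of the count table, and no row carries the name cdr-5. RNA sequencing of poly-A RNA was performed on whole animals of the wild-type strain N2. All larvae were fed OP50 bacteria for 34 h up to the L3 stage and were then kept for 12 h with 50 µM ursolic acid (UA), with its solvent DMSO, or without treatment, after which they were L4 larvae. Each of the 3 groups has 5 libraries, and the replicate number is the batch in the labels, so each batch holds 1 library of each group. The labels name no added metal in any group.

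Metallothioneins are small, cysteine-rich proteins that bind zinc, cadmium and copper, and in worms both genes are known to be switched on in the intestine by cadmium and zinc. The cdr (cadmium-responsive) genes encode a family of related proteins with similarity to glutathione S-transferases. The founding member, cdr-1, is known for a strong response to cadmium in intestinal cells, and the relatives differ from it in how they respond to metals and other stresses.

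All 7 genes lie on chromosome V (WBcel235), each with 1 annotated transcript and no overlapping gene. The cdr genes other than cdr-1 sit in a cluster of 6 genes on the minus strand, from 12407366 to 12417377, a stretch of 10012 bp. In order of position these are cdr-4 (WBGene00010470, 12407366 to 12408625), the heme-responsive gene hrg-2 (WBGene00010473), cdr-7 (WBGene00010472), cdr-6 (WBGene00010471, 12412487 to 12413701), cdr-2 (WBGene00008296, 12414656 to 12415709) and cdr-3 (WBGene00008297, 12416358 to 12417377). The gene cdr-1 (WBGene00000412) lies apart, at 15921309 to 15922820 on the plus strand. The metallothionein genes are short and far from each other, with mtl-1 (WBGene00003473) at 6691371 to 6691863 and mtl-2 (WBGene00003474) at 14018270 to 14018673, both on the minus strand. The names hrg-2 and cdr-7 are not among the 8 listed names, and both genes are described as neighbours. The annotation tables used here tie no gene to the name cdr-5, so whether a row holds that gene under another name was not settled. The cdr genes are relatives of each other, and how reads that match several genes were counted is not given in the sources used here, so a part of the reads of close relatives could be exchanged.

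Total counts lay between 12485842 and 27474535 per library, with the lowest total in the UA library of batch 5. Counts were scaled to CPM, counts relative to a common library size, with TMM factors, and 14037 genes with enough reads were tested with edgeR's quasi-likelihood model with group and batch as terms. Genes with an adjusted p (Benjamini-Hochberg over all tested genes) under 0.02 are referred to as called. A total of 6 of the 7 genes passed the filter on low counts, and cdr-3 did not. The study's methods call the 5 replicates of each group independent. The labels do not say that the libraries of a group came from separate cultures beyond the batch. The p-values measure the spread between these libraries. Of 9 intestinal marker genes, the tissue in which the cdr and mtl genes are best known, none was at 0 in any group. Their summed level was 6569 to 7930 CPM in untreated larvae, 6768 to 8024 CPM with DMSO and 7076 to 8001 CPM with UA.

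Without added metal, the genes fell into a well expressed and a barely expressed set. Per kilobase of exon, the mean level over the 15 libraries was 79.9 ± 17.5 CPM per kb (SD, n = 15) for cdr-4, 60.4 ± 4.0 for cdr-6, 58.2 ± 16.4 for mtl-2 and 43.6 ± 4.93 for cdr-2. The ranges of the first 3 overlap, so their order is within the spread over libraries. The gene cdr-2 lay below cdr-6 in every library (36.8 to 50.9 against 55.4 to 67.2 CPM per kb), while its range overlaps that of mtl-2. These 4 genes stood above 81.3% (cdr-2) to 89.5% (cdr-4) of the 13908 tested genes with a known length, whose median was 12.7 CPM per kb. The metallothionein gene mtl-1 was at 3.84 ± 3.84 CPM per kb (SD, n = 15) and cdr-1 at 1.77 ± 0.434 CPM per kb (SD, n = 15), above 22.1% and 10.5% of the genes. The ranges of mtl-1 and cdr-1 also overlap, at 0.950 to 15.3 and 1.18 to 2.82 CPM per kb. The 2 metallothionein genes thus differed in basal level, with mtl-2 above mtl-1 in every library, and cdr-1 lay below cdr-2, cdr-4 and cdr-6 in every library.

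**Figure D1:**
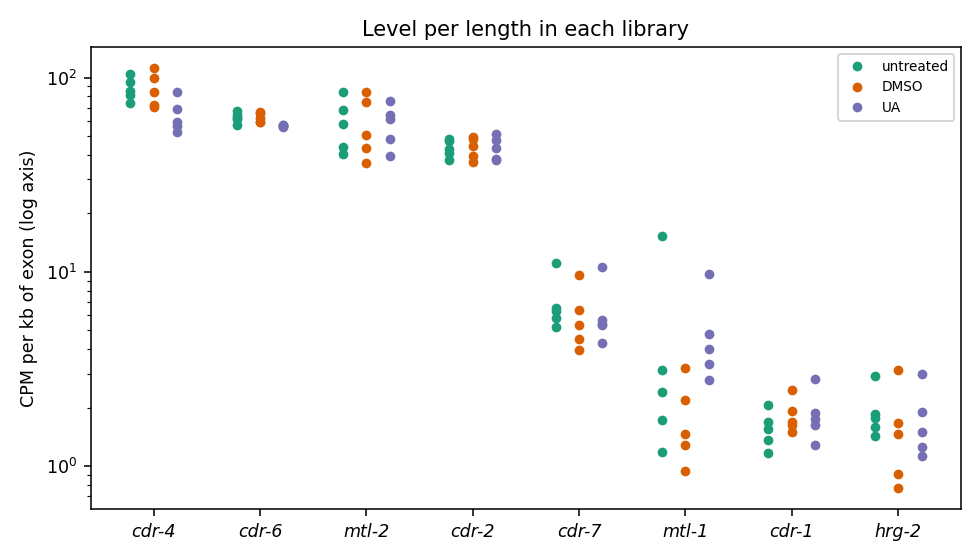
Level of each gene in CPM per kilobase of exon (log axis), 1 point per library, coloured by group (5 libraries each), including the neighbours cdr-7 and hrg-2. The genes cdr-4, cdr-6, mtl-2 and cdr-2 lie between 36.5 and 111 CPM per kb, and mtl-1, cdr-1 and the 2 neighbours lie far lower.

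The last gene of the cluster, cdr-3, was barely detected. It had 0 to 2 counts per library and 3 counts in each group of 5 libraries, at the limit of 3 counts that a count of 0 allows, so no fold is given. Its neighbour cdr-2, 648 bp away, had 564 to 1087 counts per library.

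The exposure to UA was read against its solvent DMSO first. Among the 6 genes tested, cdr-4 alone was called, and it was lower in UA. Over all tested genes 38 were called, 0.271%, with 5 above DMSO (0.0356%) and 33 below it (0.235%). By unadjusted p under 0.05, 3 of the 6 genes and 1967 of all 14037 genes differed. The genes cdr-4, cdr-6 and mtl-1, 3 of the 6, had a difference of 1 sign throughout the 5 batches, which holds for 11% of all genes tested. The median log2 fold change was -0.01 over the 6 genes and -0.00 over all tested genes.

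In the DMSO libraries of batches 1 to 5, cdr-4 was at 67.9, 69.3, 95.4, 81.2 and 107 CPM. In the UA libraries it was at 54.2, 57.2, 66.5, 50.3 and 80.9 CPM. The UA library was the lower one in every batch, while the groups overlap, since the UA library of batch 5 lay above the DMSO libraries of batches 1 and 2. Transcripts of cdr-4 fell from 84.2 ± 17.1 CPM (SD, n = 5) with DMSO to 61.8 ± 12.2 CPM with UA, a log2 fold change of -0.45 (standard error 0.054, 95% interval -0.56 to -0.33, adjusted p = 0.000106, edgeR quasi-likelihood). This is a decrease of 26.6%, in 5 of 5 batches. Within batches the log2 difference was -0.32, -0.28, -0.52, -0.69 and -0.41, and batch 4 had the deepest drop. By p-value cdr-4 was the 13th of the 14037 genes, but only the 143rd by the size of the change. The call was kept when any batch or any single library of the groups compared was left out. The log2 fold changes then ran from -0.49 to -0.39 and the adjusted p-values from 4.00e-05 to 0.00208 (edgeR quasi-likelihood). It was lost in the fit without the batch term (no replicate block), where the log2 fold change was -0.45 with a standard error of 0.15 (adjusted p = 1.0, edgeR).

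In whole larvae, fewer cells of a type and less RNA per cell cannot be told apart. The intestinal markers gave 0 calls of 9 between UA and DMSO, beside 0.271% of all tested genes. Their summed level differed within batches by -0.15 to 0.08 on the log2 scale. The largest parts of that sum came from asp-1 and act-5, with means of 3209 and 1389 CPM with UA, whereas elt-2 had a mean of 31.2 CPM. Relative to that sum, cdr-4 was lower in UA by 0.40, 0.25, 0.37, 0.69 and 0.40 on the log2 scale in batches 1 to 5 (mean difference -0.43, SD 0.161, n = 5, a measure added after the data were seen). Against untreated larvae 1 of the 9 intestinal markers was called, where 1.05% of all tested genes were. This was cpr-1, higher in UA by a log2 fold change of 0.34 (adjusted p = 0.00286, edgeR). Its mean was 516 CPM in untreated larvae, 627 CPM with DMSO and 651 CPM with UA, so the mean was also higher with the solvent alone. The summed levels of 5 hypodermis markers and of 5 germ line markers were lower in UA than in DMSO in 5 of 5 batches, by log2 differences of -0.20 to -0.01 and of -0.07 to -0.02, with 0 markers of either list called by edgeR. Their part in the decrease of cdr-4 was not tested.

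**Figure D2:**
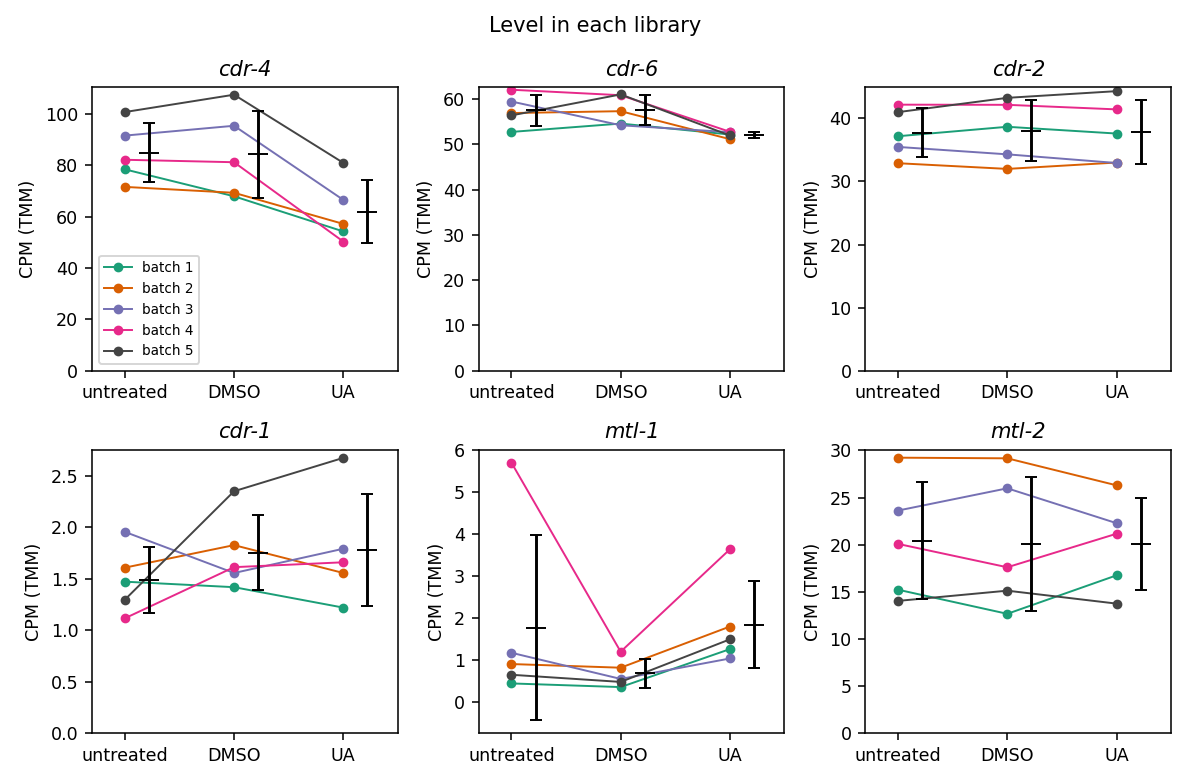
Level of each tested gene in CPM in every library, with the 3 libraries of a batch joined by a line and the group mean ± SD (n = 5) in black beside the points. In the cdr-4 panel every line falls from DMSO to UA, and in the mtl-1 panel the untreated library of batch 4 stands at 5.71 CPM, above all others.

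Another cluster gene, cdr-6, differed in the same direction by far less and was not called. Its levels were 54.6, 57.3, 54.2, 60.8 and 61.0 CPM with DMSO and 52.2, 51.1, 52.7, 52.8 and 51.9 CPM with UA. All 5 UA libraries lay below all 5 DMSO libraries, and 0.499% of the tested genes had no overlap between these groups in either direction. The log2 fold change of -0.14 (standard error 0.041, 95% interval -0.23 to -0.06) had an adjusted p of 0.129 (edgeR quasi-likelihood), and it was not called under any alternative. The UA libraries were also the tightest group of this gene, with 52.1 ± 0.655 CPM (SD, n = 5) against 57.6 ± 3.28 CPM with DMSO.

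The remaining cluster genes did not pass the test. The level of cdr-2 was 38.1 ± 4.88 CPM (SD, n = 5) in DMSO and 37.9 ± 5.06 CPM in UA, and the 95% interval of its log2 fold change ran from -0.09 to 0.07. That interval leaves out the change of cdr-4, but the ratio of cdr-2 to cdr-4 did not pass its own test (adjusted p = 0.102, exact permutation). The neighbours cdr-7 (log2 fold change 0.06, adjusted p = 0.849, edgeR) and hrg-2 (0.15, adjusted p = 0.798, edgeR), which lie between cdr-4 and cdr-6, had lower counts and differences of either sign across batches. Outside the cluster the gene next to cdr-4, K01D12.10, 196 bp away, had 0 to 9 counts per library, and C54D10.3, the gene past cdr-3, had a log2 fold change of -0.06 (adjusted p = 0.569, edgeR).

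**Figure D3:**
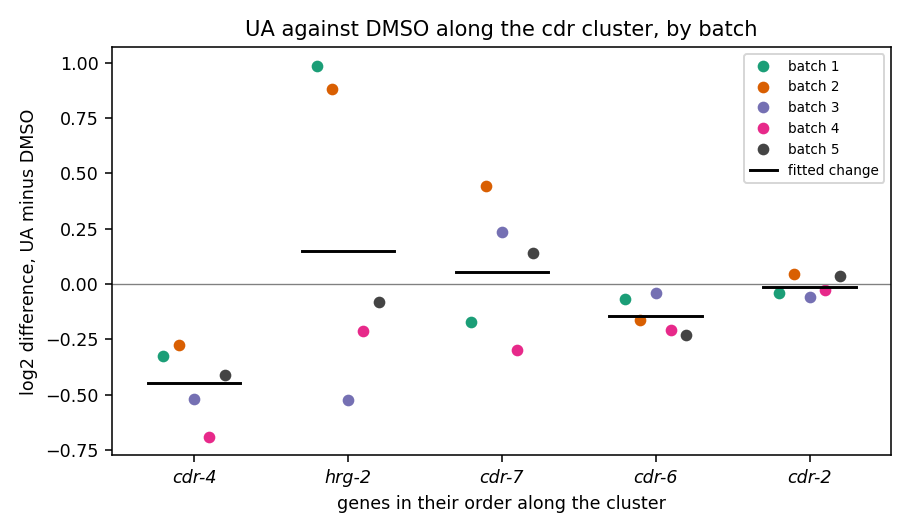
Log2 difference, UA minus DMSO within each batch, for the cluster genes in chromosomal order, with the fitted change as a bar (cdr-3 is left out, with 0 to 2 counts per library). All 5 points of cdr-4 and of cdr-6 lie below 0, those of cdr-2 lie close to 0, and those of hrg-2 and cdr-7 lie on both sides.

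Far from the cluster, cdr-1 had 26 to 59 counts per library and showed no called change. The DMSO libraries gave 1.75 ± 0.364 CPM (SD, n = 5) and the UA libraries 1.78 ± 0.542 CPM, with a 95% interval of the log2 fold change from -0.39 to 0.36. At this depth a change of the size seen for cdr-4 lies just outside the interval. The tested gene next to it, nhr-108, 118 bp away, had a log2 fold change of 0.17 (adjusted p = 0.654, edgeR).

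The metallothionein gene mtl-1 had the largest change of the 6 genes, in the upward direction, and missed the threshold. It was at 0.354, 0.817, 0.549, 1.2 and 0.478 CPM with DMSO, from 8 to 29 counts. With UA it was at 1.26, 1.80, 1.04, 3.64 and 1.49 CPM, from 19 to 90 counts. The UA library was the higher one in every batch, and the groups overlap at 1 point, where the DMSO library of batch 4 exceeded the UA library of batch 3. The log2 fold change was 1.44 (standard error 0.311, 95% interval 0.79 to 2.09, unadjusted p = 0.000181, adjusted p = 0.0445, edgeR quasi-likelihood). It ranked 9th of 14037 genes by the size of the change and 57th by p.

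The side of the threshold on which mtl-1 fell depended on how the test was run. Of 23 alternatives with a test, mtl-1 was called in 6, among them the looser threshold, and was not called in 17. It was called by DESeq2 (adjusted p = 0.00291), without the filter on low counts (adjusted p = 0.00726, edgeR), from the UA and DMSO libraries alone (adjusted p = 0.00164, edgeR), without batch 4 (log2 fold change 1.34, adjusted p = 0.0127, edgeR) and without the UA library of batch 4 (1.82, adjusted p = 0.00395, edgeR). Without the DMSO library of batch 4 it was 1.06, with an adjusted p of 0.211 (edgeR). Its direction was upward in each of these.

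The second metallothionein gene, mtl-2, did not pass the test. It was at 12.7, 29.2, 26, 17.6 and 15.1 CPM with DMSO and at 16.7, 26.3, 22.3, 21.2 and 13.8 CPM with UA, higher in UA in 2 of 5 batches. Its log2 fold change was 0.02 (95% interval -0.13 to 0.18, adjusted p = 0.923, edgeR). The genes beside the metallothionein genes that could be tested, K11G9.5 (0.13, adjusted p = 0.535, edgeR) and W02F12.8 (0.02, adjusted p = 0.947, edgeR), both next to mtl-1, were not called either.

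Whether 2 genes changed unequally was tested with the ratio of their counts within a library, which does not depend on the scaling of libraries. Of the 15 pairs of tested genes, 5 had an adjusted p under 0.05 (exact two-sided permutation test of 5 against 5 libraries, adjusted over the 15 pairs, smallest possible raw p 0.00794). The ratio of mtl-1 to mtl-2 was higher in UA by 1.36 on the log2 scale (SD of the 5 batch differences 0.240, raw exact permutation p = 0.0159, adjusted p = 0.0476), in 5 of 5 batches. The ratios of cdr-4, cdr-6 and cdr-2 to mtl-1 were lower in UA by 1.84, 1.54 and 1.41 (adjusted p = 0.0397 each, exact permutation), also in 5 of 5 batches. The ratio of cdr-1 to cdr-4 was higher by 0.44 (adjusted p = 0.0476, exact permutation).

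Within the cluster the ratios did not pass. The ratio of cdr-2 to cdr-4 was higher in UA in 5 of 5 batches, by 0.44 (raw p = 0.0476, adjusted p = 0.102, exact permutation), and the ratio of cdr-4 to cdr-6 was lower in 5 of 5, by 0.30 (SD of the batch differences 0.172, adjusted p = 0.238, exact permutation). None of the 15 ratios passed when paired by batch, where 5 batches cannot give a p below 0.0625 in the exact sign-flip test.

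Against untreated larvae, which share the UA libraries with the previous comparison, cdr-4 was again the 1 gene of 6 called. Of all tested genes 147 were called, 1.05%, with 68 above untreated (0.484%) and 79 below (0.563%). In the untreated libraries cdr-4 was at 78.4, 71.6, 91.5, 82.1 and 101 CPM. Each lay above the UA library of its batch, and the 2 groups overlap. The log2 fold change was -0.47 (standard error 0.054, 95% interval -0.58 to -0.36, adjusted p = 3.57e-05, edgeR quasi-likelihood), a decrease of 27.7%. It stayed between -0.51 and -0.41, and called, when any batch or any single library of the groups compared was left out. Without the replicate block it was -0.46 and not called (adjusted p = 1.0, edgeR). The change of cdr-6 was -0.14 (adjusted p = 0.116, edgeR), lower in 5 of 5 batches, from untreated levels of 52.7, 56.9, 59.5, 62.1 and 56.4 CPM.

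The other 4 genes were not called against untreated larvae. The log2 fold change was -0.00 for cdr-2 (95% interval -0.08 to 0.08), -0.01 for mtl-2 (95% interval -0.16 to 0.15) and 0.21 for cdr-1 (95% interval -0.17 to 0.60). For mtl-1 it was 0.18 (95% interval -0.37 to 0.72, adjusted p = 0.837, edgeR), with UA higher in 3 of 5 batches. The untreated levels of mtl-1 were 0.441, 0.904, 1.17, 5.71 and 0.648 CPM, from 12, 18, 27, 133 and 15 counts. The untreated library of batch 4 stands apart from the other 4. Without that library the log2 fold change of mtl-1 was 0.85 (adjusted p = 0.0696, edgeR), which did not pass either.

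The solvent was compared with no treatment last. None of the 6 genes was called by edgeR (0 by DESeq2), where 17 of all tested genes were, 0.121%, with 12 higher (0.0855%) and 5 lower with DMSO (0.0356%). By unadjusted p under 0.05, 1 of the 6 genes and 1111 of all 14037 genes differed. The level of cdr-4 was 84.2 ± 17.1 CPM (SD, n = 5) with DMSO and 84.9 ± 11.4 CPM without, a log2 fold change of -0.02 (95% interval -0.13 to 0.09). The levels of cdr-6 (57.6 ± 3.28 and 57.5 ± 3.49 CPM), cdr-2 (38.1 ± 4.88 and 37.7 ± 3.85 CPM) and mtl-2 (20.1 ± 7.12 and 20.4 ± 6.24 CPM) differed by less than their spread.

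The largest difference between the control groups among the 6 genes was that of mtl-1, which was not called. Its level was 0.679 ± 0.336 CPM (SD, n = 5) with DMSO and 1.77 ± 2.22 CPM without, lower with DMSO in 5 of 5 batches. The log2 fold change of -1.27 (standard error 0.308, 95% interval -1.91 to -0.62) ranked 3rd of all genes in size but had an adjusted p of 0.141 (edgeR). Without the untreated library of batch 4 it was -0.59 (adjusted p = 0.532, edgeR), and without the whole of batch 4 it was -0.53 (adjusted p = 0.660, edgeR). From the DMSO and untreated libraries alone it was -1.31 and passed the threshold (adjusted p = 0.0158, edgeR).

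**Figure D4:**
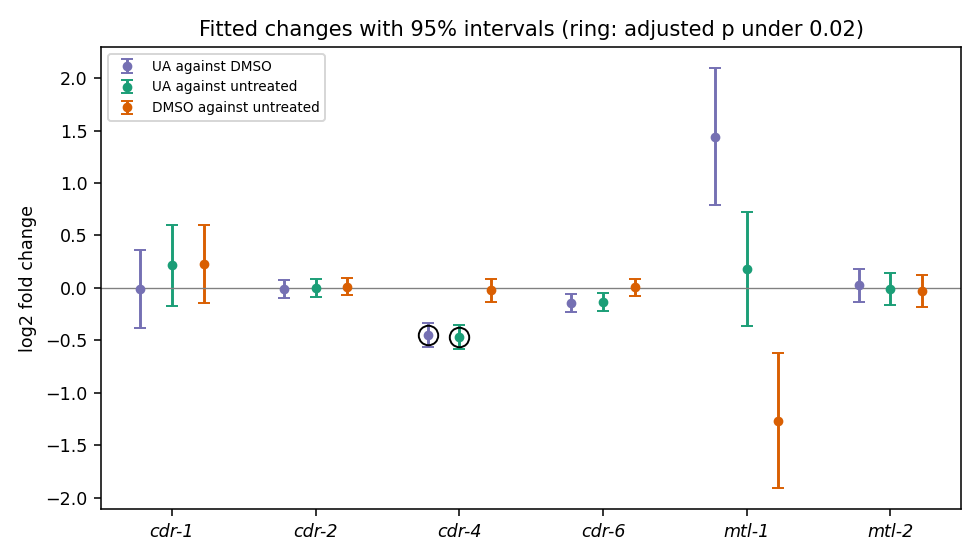
Fitted log2 fold change of each tested gene in the 3 comparisons, with 95% intervals (edgeR quasi-likelihood, 5 libraries per group). The 2 UA points of cdr-4, ringed, are the calls, at -0.45 and -0.47, and the intervals of mtl-1 and cdr-1 are the widest.

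Levels also differed between batches. The batch term was called for 4 of the 6 genes, beside 53% of all tested genes (7441 of 14037, edgeR, same threshold). The level of mtl-2 had the smallest p-value of the 6 (adjusted p = 6.18e-08, edgeR), with batch means of 14.9, 28.2, 24, 19.6 and 14.3 CPM in batches 1 to 5. Batch 2 was therefore 1.97 times batch 5, whereas the highest of the 3 group means was 20.4 CPM. The batch means of cdr-4 were 66.8, 66.0, 84.5, 71.2 and 96.4 CPM (adjusted p = 2.12e-06, edgeR), a ratio of 1.46 between the highest and the lowest.

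The gene cdr-2 had batch means of 37.8, 32.6, 34.2, 41.9 and 42.9 CPM (adjusted p = 3.45e-06, edgeR), lowest in batch 2 where mtl-2 was highest. For mtl-1 the means were 0.685, 1.17, 0.919, 3.52 and 0.873 CPM (adjusted p = 1.44e-05, edgeR), and the term was no longer called without batch 4 (adjusted p = 0.138, edgeR). The ratio of its highest to lowest batch was 5.13, larger than for 99.0% of the tested genes, whose median ratio was 1.28. The levels of cdr-6 and cdr-1 were not called for batch (adjusted p = 0.205 and 0.201, edgeR), and the ratio of cdr-6 was larger than that of 11.4% of the genes.

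**Figure D5:**
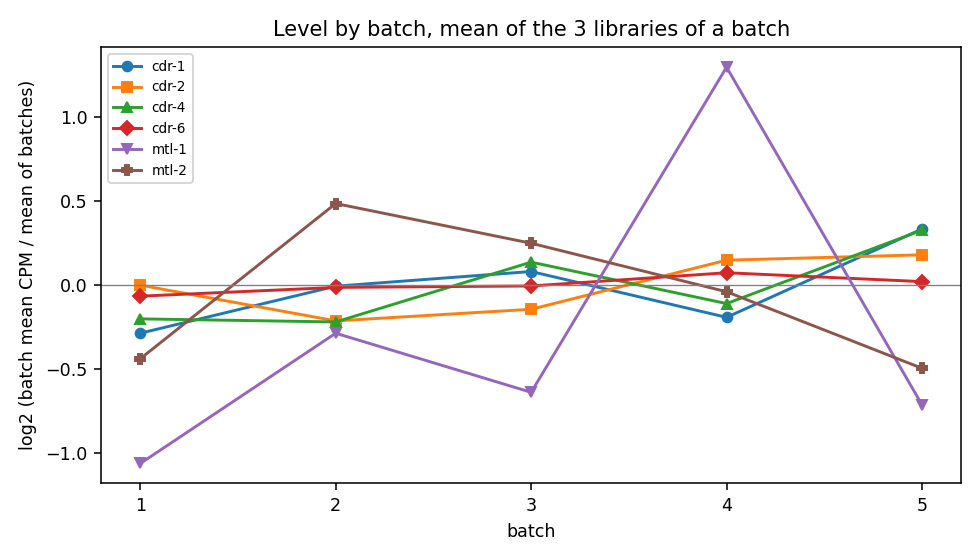
Mean CPM of the 3 libraries of each batch, divided by the mean over the 5 batches, on the log2 scale, for the 6 tested genes. The line of mtl-1 peaks in batch 4, that of mtl-2 in batch 2, and that of cdr-6 stays close to 0.

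Across the 15 libraries, which share batches, the correlation of largest size among the 6 genes was that of cdr-2 and mtl-2, with a Pearson r of log2 CPM of -0.76. After the batch means were subtracted it was -0.19. For cdr-4 and cdr-6 the correlation was 0.60, and 0.80 after the batch means were subtracted. The metallothionein genes had a correlation of 0.27 with each other, and the neighbours cdr-7 and hrg-2, both highest in batch 5, one of 0.82, which was 0.36 after the batch means were subtracted.

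By the same measure over the 15 libraries, the genes most like cdr-4 were kin-33 (0.904), K09H11.1 (0.876) and R12E2.13 (0.876). None of these was called in a comparison. The gene kin-33 had only 12 to 40 counts per library, and its log2 fold change for UA against DMSO was -0.55 (adjusted p = 0.231, edgeR). For cdr-6 they were F58F9.7 (0.892), C29F7.2 (0.868) and ZK550.6 (0.841), of which C29F7.2 was lower in UA than in DMSO by a log2 fold change of -0.48 (adjusted p = 0.00253, edgeR). For mtl-1 they were scl-2 (0.871), the lipase gene lipl-2 (0.848) and C13G3.1 (0.828), and lipl-2 was higher in UA than in DMSO by 0.66 (adjusted p = 0.0164, edgeR).

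For mtl-2 the most similar genes were bus-8 (0.933), mlt-8 (0.930) and C52D10.1 (0.903), and none was called. Those of cdr-2 were fbxa-182 (0.945), T26A5.6 (0.940) and F53F1.6 (0.936), and those of cdr-1 were Y55F3AR.1 (0.859), mif-4 (0.806) and sor-3 (0.801), again with no call. After the batch means were subtracted, the 3 genes most like cdr-4 were F12E12.11 (0.976), dhs-23 (0.973) and R02C2.7 (0.955), none of them among the 3 named first. Likewise, 0 of the 3 genes named for each of cdr-2, cdr-6, mtl-1 and mtl-2 were still among the 3 most similar after that subtraction, and 1 of 3 for cdr-1 (Y55F3AR.1), so most of the genes named depend on whether differences between batches are kept.

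The other genes of metal handling gave no call for the cadmium and zinc list. Of 23 genes listed for cadmium and zinc handling, 21 were tested and 0 were called by edgeR in each of the 3 comparisons. Over all tested genes 0.271% were called for UA against DMSO, 1.05% for UA against untreated and 0.121% for DMSO against untreated. At such shares a list of 21 genes is likely to give no call, so the 0 says little about the list. The median log2 fold change of the list was -0.00 for UA against DMSO, beside -0.00 over all tested genes. The zinc transporters cdf-2 (-0.07, adjusted p = 0.680, edgeR) and ttm-1 (0.02, adjusted p = 0.908, edgeR), known as zinc-induced genes like the metallothioneins, were not called for UA against DMSO. The lowest adjusted p of the list was that of the ABC transporter gene pgp-5, higher in UA than in untreated larvae by 0.40 (adjusted p = 0.0348, edgeR). This gene was at 0.22 with DMSO against untreated larvae (adjusted p = 0.574, edgeR) and at 0.18 for UA against DMSO (adjusted p = 0.396, edgeR). Of the cadmium-induced pair numr-1 and numr-2, numr-1 had 0 counts in every library and numr-2 had 1 to 16, so neither was tested.

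Of 12 genes listed for iron, copper and manganese handling, 11 were tested. For UA against untreated, where 1.05% of all tested genes were called, 1 of these was called, the only call of the list. This was hmit-1.1, known as a myo-inositol transporter gene of the response to osmotic stress and not as a metal transporter, higher in UA than in untreated larvae by a log2 fold change of 0.41 (adjusted p = 0.00262, edgeR, 5 of 5 batches). It was also at 0.36 with DMSO against untreated larvae (adjusted p = 0.0302, edgeR) and at 0.05 for UA against DMSO (adjusted p = 0.798, edgeR). The ferritin genes ftn-1 and ftn-2, which store iron, were at -0.22 and -0.09 for UA against DMSO (adjusted p = 0.268 and 0.260, edgeR).

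The list of transcription factors and cofactors tied to these genes holds 11 names for 10 genes, since hizr-1 and nhr-33 are the same gene. All were tested, and 0 were called by edgeR in any of the 3 comparisons. The shares of all tested genes called were 0.271% for UA against DMSO, 1.05% for UA against untreated and 0.121% for DMSO against untreated. For UA against DMSO the log2 fold change was -0.04 for elt-2, the GATA factor of the intestine on which metallothionein transcription depends, -0.11 for nhr-33, the name in the table of the zinc sensor hizr-1, and 0.01 for daf-16, the FOXO factor of insulin signalling known to raise mtl-1. The lowest adjusted p for UA against DMSO was that of skn-1, the factor of the oxidative and xenobiotic response, at 0.13 (adjusted p = 0.161, edgeR). Over the 3 comparisons it was that of pqm-1 for UA against untreated, at -0.21 (adjusted p = 0.137, edgeR). Of 11 other genes known as DAF-16 targets, 9 were tested and none was called for UA against DMSO by edgeR, beside 0.271% of all tested genes. The desaturase gene fat-7 was the 1 gene of the list called, lower in UA than in untreated larvae by 0.40 on the log2 scale (log2 fold change -0.40, adjusted p = 0.000108, edgeR) and also lower with DMSO (-0.33, adjusted p = 0.00401, edgeR). The superoxide dismutase gene sod-3 was at -0.00 for UA against DMSO (adjusted p = 0.995, edgeR).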

How the data were processed

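The authors sequenced 15 libraries of poly-A RNA made with a stranded kit, and per the labels processed them with bcl2fastq, STAR 2.5.2b and featureCounts 1.5.2 on WBcel235. They deposited unnormalized read counts per gene in 1 table. The strand setting of the counting and the handling of reads that match several genes are not given in the sources used here. Groups and batches came from the sample labels. Same-numbered libraries of different groups deviated together from their group means (correlations from 0.413 to 0.844 in 15 pairs). Differently numbered libraries were not compared in this way, so these values alone do not show that the numbers pair the libraries. The pairing was taken from the labels.

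Genes were tested with 10 counts or more in any library and 1 CPM or more in 3 or more libraries. The fit used edgeR 4.0.16 in R 4.3.3 with TMM factors, the earlier quasi-likelihood method, group and batch terms and all 15 libraries. Standard errors were derived from the log2 fold change and the F statistic, and log2 CPM used a prior count of 2. Ratios of counts had 0.5 added to each count. The study's methods give the filter and threshold, and the batch term is a choice made here. Alternatives were DESeq2 1.42.0, RLE factors, the edgeR 4 method, the robust option, other filters, no batch term, fewer groups, a threshold of 0.05 and leaving out each batch or library. Fits and permutation tests were tested on simulated data.

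The genes, gene lists and tests were chosen with earlier results of these data known. Named besides the 8 genes were the 3 genes most like each in level, the genes beside them and the called genes of the lists. The list genes named without a call were picked for their known roles or as the lowest p of a list, after their values were seen, as were the genes most like cdr-4 with batch means subtracted. Of the 20541 gene identifiers 20194 matched the annotation. Figures used matplotlib 3.10.9. Promoter and protein sequences were not used here.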

Additional observations from a re-analysis of the deposited data

Results flagged for a closer look

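The level of mtl-1 in the untreated library of batch 4 was 5.71 CPM, from 133 counts, far from the other 4 untreated libraries at 0.441 to 1.17 CPM. Among 21 groups of 5 libraries examined, 7 genes in 3 groups, this was the only library so far from the rest of its group, where chance gives 1.05. In the same batch mtl-1 was also the highest of its group with DMSO, at 1.2 CPM, and with UA, at 3.64 CPM. What set batch 4 apart was not tested.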

How the results depend on the processing

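The decrease of cdr-4 in UA was called in 23 of the 24 alternatives with a test in each UA comparison. The exception was the fit with no replicate block, where the log2 fold change was -0.45 against DMSO and -0.46 against untreated, each with an adjusted p of 1.0 (edgeR), and 0 of the 6 genes were called in either comparison. Without the block, 10 genes in all were called between UA and DMSO (38 with it), 12 between UA and untreated (147) and 0 between DMSO and untreated (17). For UA against DMSO, cdr-4 and mtl-1 made 2 called genes of the 6 with DESeq2, at a false discovery rate of 0.05, with no filter and from the libraries of the groups compared. Leaving out a batch or library gave 1 to 2, with 2 without batch 4 or without its UA library. For DMSO against untreated, 1 gene (mtl-1) was called from the libraries of the groups compared. Over all genes, UA against DMSO gave 61 calls with DESeq2, 77 at a false discovery rate of 0.05, 71 with no filter and 17 (without batch 5) to 162 (without the UA library of batch 4) when a batch or library was left out. UA against untreated gave 79 from the libraries compared and 71 (without batch 1) to 396 (without the UA library of batch 4). DMSO against untreated gave 26 with DESeq2, 30 at 0.05, 35 with no filter, 73 from the libraries compared and 9 to 31 (without batch 4) when a batch or library was left out. Of the ratios between genes, 5 passed, 3 with 2 added to counts, 0 in the sign-flip test with the replicate block and 0 to 0 without a batch, where 4 against 4 libraries cannot give a p below 0.0286. No called result reversed.

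Depth limits cdr-1, mtl-1 and cdr-3 most, with 26 to 59, 8 to 133 and 0 to 2 counts per library. With at least 10 counts required in every library, mtl-1 was not tested. Even in the shallowest library cdr-4 had 1030 counts.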
